A study of Saccharomyces cerevisiae with 12 samples.

Results

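The libraries compared here are those that bear on the rescue of a DBP7 deletion by wild-type Dbp7: 3 libraries of Δdbp7 + Dbp7WT and 3 of Δdbp7 + EV, chosen by the group in their labels. They make up 6 of the 12 RiboMeth-seq libraries of the series. Both groups carry the same deletion of DBP7 in a haploid budding yeast background (BY4741), taken from a deletion collection. Δdbp7 + Dbp7WT received a low-copy plasmid with the DBP7 coding sequence under its own promoter and terminator, and Δdbp7 + EV the same plasmid without it. The other 6 libraries, 3 of WT + EV (the wild-type strain with the empty plasmid) and 3 of Δdbp7 + Dbp7DQGD (the deletion with a helicase made inactive by an E to Q change), are given beside the results as values. RNA was total RNA of exponentially growing cultures, and the deletion strain without Dbp7 grows more slowly than the wild type. The libraries are described as biological triplicates, and each group is 1 strain with 1 plasmid. The files hold no mRNA, so neither the deletion nor the expression from the plasmid was checked here.

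Dbp7 is a DEAD-box RNA helicase that acts on early precursors of the large (60S) ribosomal subunit in the nucleolus. At the same stage, box C/D small nucleolar RNAs (snoRNAs) base-pair with the pre-rRNA and direct methylation of the 2′-hydroxyl of single riboses, and helicases release snoRNAs from their sites. The 18S, 5.8S and 25S rRNAs are cut from 1 precursor, with the 18S rRNA going to the small subunit and the 5.8S and 25S rRNAs to the large one. In RiboMeth-seq, RNA is fragmented by alkali, a methylated ribose protects the bond next to it, and fewer fragments therefore end at a methylated nucleotide than next to it. The RMS score compares the ends at a nucleotide with the weighted mean of its 6 neighbours on each side, as 1 minus their ratio. Values below 0 are set to 0, so the score runs from 0 (not protected) to 1 (fully protected).

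The sites on which the comparison turns are shown with 10 nucleotides on each side, as RNA letters of the deposited tables, 5′ to 3′. Capitals mark the nucleotides listed as methylated. The first 8 had the smallest p in the comparison, and the last 3 are sites whose scores separated the groups when 5′ read ends alone were used. They lie in the 25S rRNA (gene RDN25-1) or 18S rRNA (RDN18-2), both on chromosome XII, and positions are counted within each rRNA.
25S U898: aucgucgaauUuggguauagG
25S G867: gaggcucguaGcgguucugAc
25S U2347: CccuaucuacUaucuagcgaa
25S A1449: uggugguaguAGcaaauauuc
25S A2220: gucaaagugaAgaaauucaac
25S A876: aGcgguucugAcgugcaaauc
25S A2640: cuguuaaacgAuaacgcagau
18S A28: caguagucauAugcuugucuc
25S C650: ucuugaaacACggaccaagga
25S A807: ugggacccGaAagauggugaA
18S C1007: gaucagauacCgucguagucu

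Libraries of Δdbp7 + EV held 7498768 to 8009776 read ends and those of Δdbp7 + Dbp7WT 13122842 to 16854403, each fragment giving a 5′ and a 3′ end. At the 55 listed sites of these 6 libraries a median of 107.5 ends (lowest 7) was set against a median flanking mean of 1681 (lowest 381). Counting error therefore had a median SD of 0.00583 in the score, whereas the median SD over libraries was 0.0207. As a background level, 25S G2395, a nucleotide without known methylation, gave 0.0962 ± 0.128 (SD, n = 3) in Δdbp7 + EV and 0.161 ± 0.0711 in Δdbp7 + Dbp7WT. The Δdbp7 + EV libraries scored 0.0472, 0.241 and 0 there, the last at the floor of the score, so this single position gives only a rough level. Same-numbered libraries deviated from their group means together within each of 2 pairs of groups. Over the 55 sites these deviations correlated at 0.855 to 0.892 between WT + EV and Δdbp7 + EV and at 0.839 to 0.930 between Δdbp7 + Dbp7WT and Δdbp7 + Dbp7DQGD, but only at -0.114 to 0.113 between Δdbp7 + EV and Δdbp7 + Dbp7WT. The latter comparison thus runs between 2 such sets of libraries, and the effect of the set cannot be told apart from that of the plasmid.

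In limma over 12 libraries, scores at 2 of the 55 sites (3.64%), 25S U898 and G867, were called higher with Dbp7WT. None was called lower (0%). This fit takes same-numbered libraries as independent although they deviated together as above, and on only the 6 libraries compared U898 passed (limma adjusted p = 0.00756) and G867 did not (limma adjusted p = 0.0636). Both lie in the 5′ part of domain II. U898, a target of snR40, scored 0.695, 0.718 and 0.721 in the 3 libraries of Δdbp7 + EV and 0.836, 0.877 and 0.830 in those of Δdbp7 + Dbp7WT. The groups were apart, with a gap larger than the range within either. The score rose by 0.136 (SE 0.0177, 95% interval 0.0965 to 0.176, limma adjusted p = 0.0014). In counts, 419 to 617 ends at U898 stood against flanking means of 1373 to 2186 in Δdbp7 + EV, and 519 to 755 ends against 4083 to 4602 in Δdbp7 + Dbp7WT. Beside these, U898 scored 0.830 ± 0.0284 (SD, n = 3) in WT + EV and 0.770 ± 0.0194 in Δdbp7 + Dbp7DQGD. The wild-type libraries overlapped those of Δdbp7 + Dbp7WT, and the Dbp7DQGD libraries lay between both Δdbp7 groups without reaching either.

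G867, guided by snR50, scored 0.905, 0.896 and 0.867 in Δdbp7 + EV and 0.942, 0.960 and 0.953 in Δdbp7 + Dbp7WT. All libraries with Dbp7WT were above all those without, and the score rose by 0.0621 (SE 0.0122, 95% interval 0.0346 to 0.0896, limma adjusted p = 0.0165). WT + EV had a mean of 0.955 at G867, and Δdbp7 + Dbp7DQGD one of 0.904. U898 was the only site called without replicate 3 of Δdbp7 + EV, and likewise without replicate 2 or replicate 3 of Δdbp7 + Dbp7WT, with limma adjusted p for G867 of up to 0.0868. Without Δdbp7 + EV replicate 2, 5 sites passed, namely U898, G867, C663, A2220 and U2347.

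**Figure D1:**
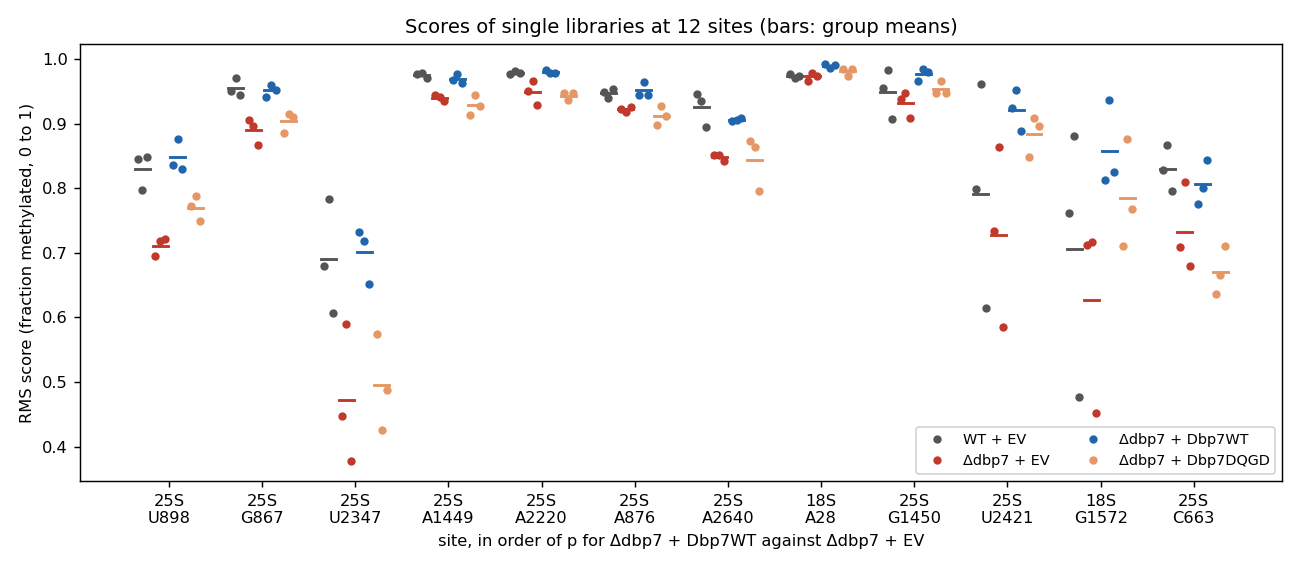
RMS scores (vertical axis, fraction from 0 to 1) of all 12 libraries at the 12 sites with the smallest p for Δdbp7 + Dbp7WT against Δdbp7 + EV; each point is a library and each bar a group mean (n = 3). At U898 and G867 the 3 blue points (Dbp7WT) lie above the 3 red points (EV), and at U2347, U2421 and 18S G1572 the points of single groups are widely spread.

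A further 8 sites were among the 10 with the smallest p, all with higher means in Δdbp7 + Dbp7WT and with groups that did not overlap, but none passed. The largest of these differences was at 25S U2347, an snR65 target that is methylated in only part of the rRNA. U2347 scored 0.447, 0.590 and 0.377 in Δdbp7 + EV and 0.732, 0.718 and 0.652 in Δdbp7 + Dbp7WT. The difference was 0.229 (SE 0.0625), and the limma adjusted p was 0.0657. Differences were small at A1449, guided by U24 (0.0294), at A2220, guided by snR47 (0.0314), and at A876, guided by snR72 (0.0293). Their adjusted p in the same limma fit were 0.0657, 0.0657 and 0.0722. A2640, an snR68 target, scored 0.852, 0.851 and 0.843 without and 0.903, 0.906 and 0.909 with Dbp7WT, a difference of 0.0574 (limma adjusted p = 0.129). Within both groups the A2640 scores were nearly identical, and in the fit on only the 6 libraries compared, A2640 passed beside U898. The pooled SD at A2640 was 0.00421 over these 6 libraries and 0.0252 over all 12. The others were 18S A28, guided by snR74 (0.0163), G1450, guided by U24 (0.0453), and U2421, guided by snR78 (0.194).

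Across all sites, 36 of 55 had a higher mean in Δdbp7 + Dbp7WT than in Δdbp7 + EV, with a median difference of 0.0108. At 13 sites (23.6%) all 3 libraries with Dbp7WT were above all 3 without, and at 2 sites (3.64%) they were all below. These 2 sites, 18S C1639 and U1269, were singled out after their values were seen, and their means differed by -0.0107 and -0.00966. In the 25S rRNA 25 of 37 sites were higher and 11 were apart and higher, and in the 18S rRNA 11 of 18 were higher and 2 were apart and higher. At 25 of the 55 sites the 95% interval of the difference lay within -0.05 to 0.05. The 15 sites with a mean score under 0.9 over all libraries had a median difference of 0.0574 and the 40 others one of 0.0065. This split used the same scores, so a site low in Δdbp7 + EV could enter the first list for that reason. High scores also leave little room to rise, so the medians do not show that less methylated sites responded more.

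Along the 25S rRNA the 10 sites in the 5′ part of domain II included both that passed. Here 9 of 10 were higher with Dbp7WT, with a median difference of 0.0237. In the end of domain II and domain III all 4 sites were higher (median 0.0287), and in the 5′ part of domain V 5 of 6 (median 0.022). In domain IV 5 of 9 were higher, with a median of 0.00196. In the peptidyl transferase centre, the catalytic part of the subunit, 2 of 8 were higher and the median was -0.00448. None of the differences between stretches was tested.

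**Figure D2:**
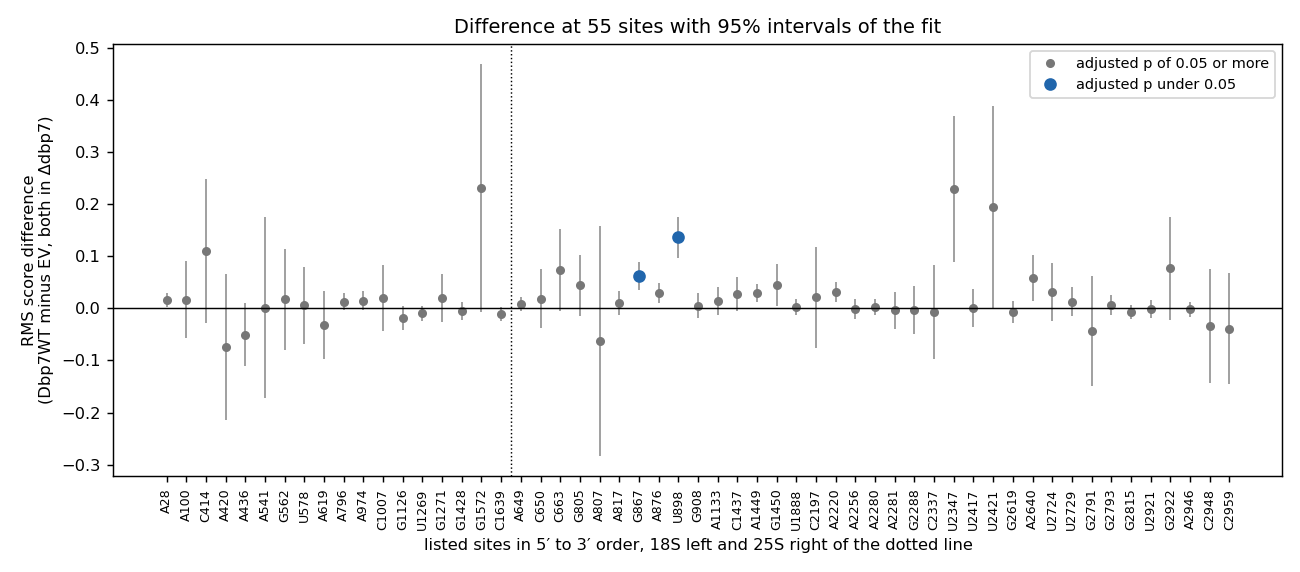
Difference in RMS score (Δdbp7 + Dbp7WT minus Δdbp7 + EV, vertical axis) at the 55 listed sites in 5′ to 3′ order, with 95% intervals of the limma fit. Blue points, 25S G867 and U898, passed at an adjusted p under 0.05, and the intervals are widest at 18S G1572, 25S A807 and U2421.

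The study named 6 sites of the 25S rRNA as affected by loss of Dbp7, a choice made on these libraries. Of these, 5 had a higher mean with Dbp7WT, with a median difference of 0.0656 over the 6, and U898 alone passed. C663, guided by snR58, scored 0.709, 0.810 and 0.679 in Δdbp7 + EV and 0.776, 0.801 and 0.843 in Δdbp7 + Dbp7WT, so that the groups overlapped. C2197, guided by snR76, scored 0.868, 0.841 and 0.880 without and 0.930, 0.935 and 0.789 with Dbp7WT. At this site 1 library of Δdbp7 + Dbp7WT fell below all those of Δdbp7 + EV, and the difference of 0.0215 had a 95% interval from -0.0756 to 0.119. C2948, the snR69 target, was the site whose mean was lower with Dbp7WT, at 0.818 ± 0.0678 (SD, n = 3) against 0.852 ± 0.0392. WT + EV scored 0.706 there and Δdbp7 + Dbp7DQGD 0.778, and the difference of -0.0341 between both Δdbp7 groups had a 95% interval from -0.143 to 0.0748. C2959, an snR73 target close to C2948, differed by -0.0392 (95% interval -0.146 to 0.0678). From 5′ read ends alone (below), C2948 differed by -0.0052 (SE 0.0127, limma adjusted p = 0.775), and both Δdbp7 groups overlapped. Its 5′ end scores were 0.898 to 0.906 without Dbp7 and 0.893 to 0.904 with Dbp7WT, beside 0.727 to 0.786 for WT + EV. C663 and C2197 differed by 0.0471 and 0.0315 from 5′ ends (limma adjusted p = 0.334 and 0.454). Neither passed, whereas U898, U2347 and A2640 did.

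Fragments give an end on either side, so the score was also computed from each kind of read end alone. Scores from 5′ ends varied less between libraries (median SD 0.00886) than those from 3′ ends (0.0421), although the median counting SD was similar (0.00661 and 0.00905). At 48 of 55 sites the SD over libraries was larger for 3′ ends. From 5′ ends, 13 of 55 sites (23.6%) passed in limma, all of them higher with Dbp7WT, whereas from 3′ ends none passed and 7 had an unadjusted p under 0.05. Of the 13 sites, 12 were among the 37 listed in the 25S rRNA and 1 among the 18 in the 18S rRNA. The 5′ part of domain II, with 10 listed sites, held 6 of them. The 5′ end scores were apart and higher with Dbp7WT at 16 sites (29.1%) and apart and lower at 3 (5.45%). Both sites called on the sum of ends were among the 13, and 9 of the 13 were called again with each of the 6 libraries left out in turn.

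These 9 sites were 25S C650, G805, A807, G867, A876, U898, G1450 and U2347 and 18S C1007, and C650, G805 and C1007 are named here after their values were seen. C650, one of the targets of U18, had 5′ end scores of 0.918, 0.923 and 0.910 in Δdbp7 + EV and 0.980, 0.964 and 0.982 in Δdbp7 + Dbp7WT. The 5′ end score at C650 rose by 0.0585 (SE 0.00559, limma adjusted p = 5.13e-05). In WT + EV the mean 5′ end score of C650 was 0.979 and in Δdbp7 + Dbp7DQGD it was 0.922. On the sum of ends C650 did not separate the groups, and the 3′ end score of Δdbp7 + Dbp7WT replicate 2 was 0.742 beside 0.932 and 0.936 in the other libraries of that group.

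18S C1007, guided by snR79, was the only 18S site of the 13. Its 5′ end scores were 0.940, 0.931 and 0.916 in Δdbp7 + EV and 0.981, 0.979 and 0.981 in Δdbp7 + Dbp7WT. The groups were far apart relative to their ranges, and the 5′ end score rose by 0.0514 (SE 0.0063, limma adjusted p = 0.000249). On the sum of ends the groups overlapped at C1007, at 0.926, 0.917 and 0.898 without and 0.965, 0.876 and 0.958 with Dbp7WT. That difference was 0.0197 (limma adjusted p = 0.728), and from 3′ ends it was -0.00525. At 25S A807 the direction depended on the kind of end. On the sum of ends it scored 0.895, 0.857 and 0.847 in Δdbp7 + EV and 0.892, 0.943 and 0.573 in Δdbp7 + Dbp7WT, a difference of -0.0634. The low value came from 3′ ends, whose score in Δdbp7 + Dbp7WT replicate 3 was 0.118, and Δdbp7 + Dbp7DQGD replicate 3 was also low at A807 (0.605 on the sum of ends). From 5′ ends A807 scored 0.920, 0.909 and 0.895 without and between 0.972 and 0.975 with Dbp7WT, a rise of 0.0661 (SE 0.0102, limma adjusted p = 0.000902).

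At U2347 the 5′ end scores were 0.487, 0.437 and 0.388 in Δdbp7 + EV and 0.706, 0.701 and 0.724 in Δdbp7 + Dbp7WT. The groups were apart with a smaller spread than on the sum of ends, and the rise of 0.273 (SE 0.0494, limma adjusted p = 0.00213) was the largest of the 13. WT + EV had a mean 5′ end score of 0.681 and Δdbp7 + Dbp7DQGD one of 0.493. U898 rose by 0.118 from 5′ ends (limma adjusted p = 0.00038), and from 3′ ends it differed by 0.149 (limma adjusted p = 0.0805).

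Other large differences on the sum of ends were carried by 3′ ends. 18S G1572, guided by snR57, differed by 0.231 on the sum of ends and by 0.0246 from 5′ ends. 25S U2421 differed by 0.194 on the sum of ends and rose by 0.0479 from 5′ ends (limma adjusted p = 0.0175), and the authors' group means differed by 0.0221. 25S G2922, which the methyltransferase Spb1 modifies without a guide, differed by 0.077 on the sum (0.0444 without Δdbp7 + EV replicate 1) and by -0.00334 from 5′ ends. Likewise 18S C414, guided by U14, differed by 0.110 on the sum (0.0487 without Δdbp7 + EV replicate 1) and by -0.00183 from 5′ ends. 18S A420, guided by snR52, differed by -0.0744 and by 0.00193, and on the sum of ends by -0.00377 without Δdbp7 + Dbp7WT replicate 3, which scored 0.726 beside 0.943 and 0.933. At each of these last 3 sites the sign turned with the kind of end.

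**Figure D3:**
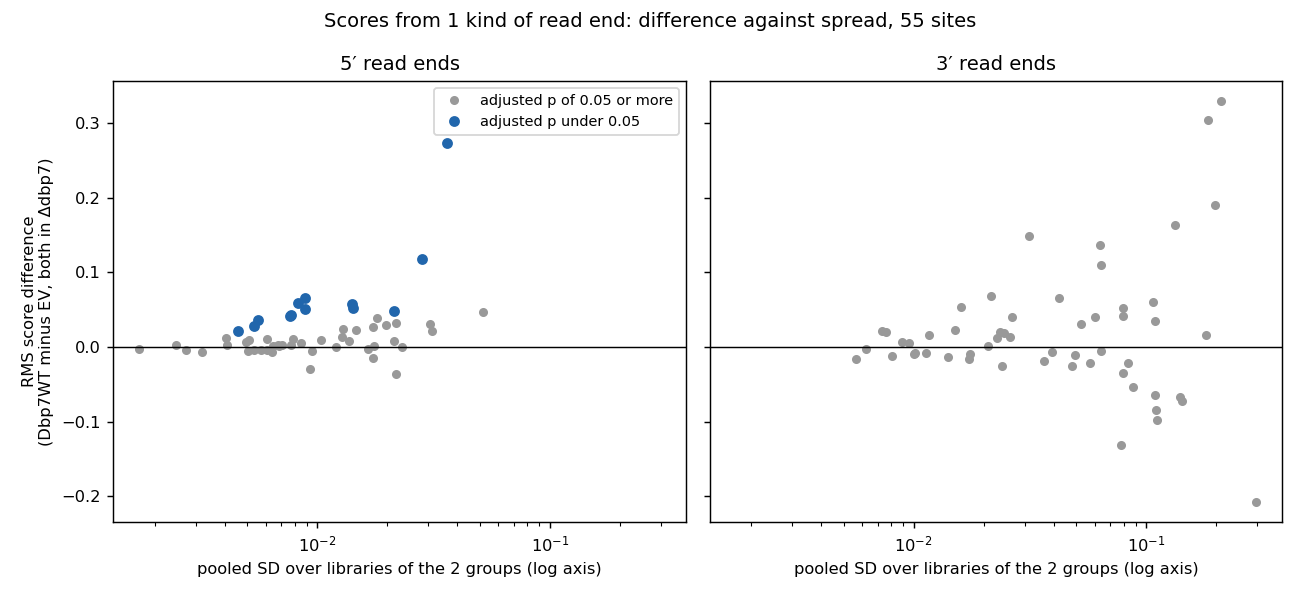
Difference in RMS score (Δdbp7 + Dbp7WT minus Δdbp7 + EV, vertical axis) against the pooled SD over the 6 libraries (horizontal, log axis) at 55 sites, for scores from 5′ ends (left) and 3′ ends (right). Points from 3′ ends extend to larger SD, and only 5′ ends gave sites with an adjusted p under 0.05 (blue, 13 sites, all above 0).

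Some guides direct more than 1 of the listed sites. From 5′ ends 5 of the 23 targets of such guides passed, beside 7 of the 29 targets of guides with 1 site. The guides with a target that passed, chosen for this after the values were seen, were snR40, U18, snR47 and U24, and the difference between their targets was not tested. snR40 guides 25S U898 and 18S G1271. G1271 scored 0.926, 0.987 and 0.944 in Δdbp7 + EV and 0.989, 0.959 and 0.967 in Δdbp7 + Dbp7WT, so that the groups overlapped, and the 95% interval of its difference was -0.0262 to 0.0651. From 5′ ends U898 rose by 0.118, while G1271 differed by -0.00339 (SE 0.00583). U18 guides the neighbours A649 and C650, whose 5′ end scores differed by 0.0107 (limma adjusted p = 0.151) and 0.0585. snR47 guides 25S A2220, whose 5′ end score rose by 0.0222, and 18S A619, whose 5′ end score differed by -0.0292 (limma adjusted p = 0.334). U24 guides C1437, A1449 and G1450, whose 5′ end scores differed by 0.0322, 0.0365 and 0.0284. Of these U24 targets, A1449 and G1450 passed and C1437 had an adjusted p of 0.0824 in the limma fit. For snR13, snR41, snR48, snR51, snR52, snR60 and snR67 no target passed, with 5′ end differences from -0.0362 at 18S A100 to 0.0386 at 25S G2793.

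To look beyond the listed sites, read-end counts of 5172 of the 5196 nucleotides of both rRNAs were compared relative to their flanks. No nucleotide passed in edgeR (0%), 481 had an unadjusted p under 0.05, and DESeq2 called 29. At 376 nucleotides (7.27%) the ratio of ends to flank was lower in all libraries with Dbp7WT than in all without, and at 340 (6.57%) it was higher. At 25S G24, which is not a listed site, the ratio of ends to flank was 1.12, 1.11 and 0.990 in Δdbp7 + EV and 0.462, 0.470 and 0.446 in Δdbp7 + Dbp7WT. The log2 difference at G24 was -1.22 (SE 0.23, edgeR adjusted p = 0.193). In a fit on only the 6 libraries compared, G24 was the single nucleotide called (edgeR adjusted p = 0.00645).

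25S G727 had the smallest p of all, with ratios of 0.451, 0.425 and 0.404 in Δdbp7 + EV and 0.715, 0.791 and 0.824 in Δdbp7 + Dbp7WT. The log2 difference at G727 was 0.86 (SE 0.15, edgeR adjusted p = 0.189). More ends relative to the flank give a lower score, but G727 is not a listed site, and whether its ratio reflects protection was not tested. In the 25S rRNA the near neighbours C2572 and G2575 differed in opposite directions, by -0.93 and 1.04 on the log2 scale. Each lies in the flank of the other, so these ratios are not independent. The remaining nucleotides named by rank were 25S G1825 and A2252 and 18S G689, with more ends, and 18S G1114, C1128 and G1673, with fewer, all with log2 differences between -0.59 and 0.72. From 5′ ends alone, 10 of 5141 nucleotides passed (0.195%), 5 of which were listed sites (18S C1007, 25S C650, A807, A876 and U898). By 5′ ends the ratio to the flank was apart and lower with Dbp7WT at 434 nucleotides (8.44%) and apart and higher at 411 (7.99%). The 5 nucleotides that passed and were not listed were 18S G845 and G1035 and 25S C2572, with fewer ends, and the adjacent 25S G726 and G727, with more, at log2 differences of 1.05 (edgeR adjusted p = 0.00973) and 1.77 (edgeR adjusted p = 0.0211).

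The number of read ends from each RNA also separated the groups. Per 18S read end, the 25S rRNA gave 1.40, 1.57 and 1.39 ends in Δdbp7 + EV and 2.17, 2.19 and 2.09 in Δdbp7 + Dbp7WT. The groups did not overlap, and the ratio was 1.48-fold higher with Dbp7WT (log2 0.57, pooled SD 0.07, n = 3 and 3). A two-sided exact permutation test gave p = 0.1, the smallest that 3 against 3 can give, for this and for each of the other 7 ratios compared. WT + EV had a ratio of 2.07 ± 0.0735 (SD, n = 3) and Δdbp7 + Dbp7DQGD one of 1.43 ± 0.0742, the first overlapping Δdbp7 + Dbp7WT and the second Δdbp7 + EV. Ends per nucleotide of 25S relative to 18S were 0.770 ± 0.0528 without Dbp7 and 1.14 ± 0.0285 with Dbp7WT.

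The gain in 25S ends was spread along the molecule. Each of 7 stretches, from domain I to domain VI, gave more ends per 18S end in every Δdbp7 + Dbp7WT library than in any Δdbp7 + EV library. The folds ran from 1.43 in domain IV to 1.56 in the 5′ part of domain V. In the peptidyl transferase centre the ratio was 0.0914 ± 0.00113 without and 0.138 ± 0.000727 with Dbp7WT (SD, n = 3), where the spread was smallest.

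**Figure D4:**
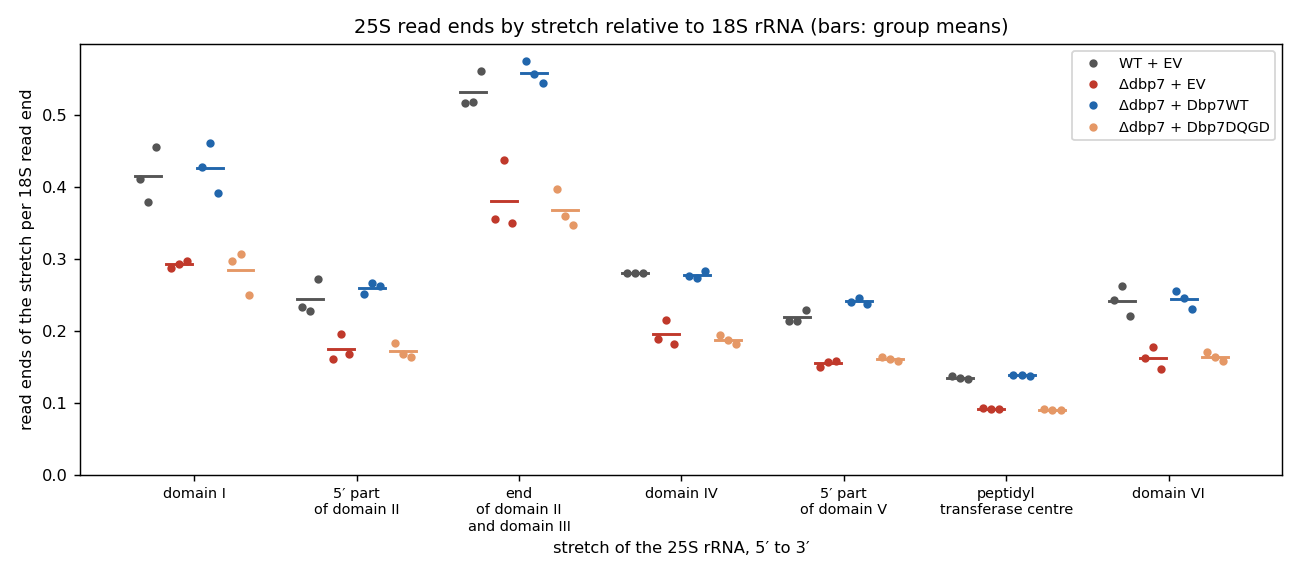
Read ends of 7 stretches of the 25S rRNA per 18S read end (vertical axis, from 0) in each library, with group means as bars (n = 3). In every stretch the blue points (Δdbp7 + Dbp7WT) lie above the red points (Δdbp7 + EV).

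The 5.8S rRNA moved the other way. It gave 0.695, 0.621 and 0.470 ends per 18S end in Δdbp7 + EV and 0.202, 0.279 and 0.282 in Δdbp7 + Dbp7WT. Relative to the 25S rRNA, with which it leaves the same precursor, the 5.8S ratio was 3.46-fold higher in Δdbp7 + EV than in Δdbp7 + Dbp7WT. Per nucleotide, 5.8S gave 8.82 ± 1.74 times the ends of 25S without Dbp7 and 2.55 ± 0.481 times with Dbp7WT (SD, n = 3), beside 3.37 ± 0.65 in WT + EV and 5.83 ± 0.903 in Δdbp7 + Dbp7DQGD.

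All 5 small nuclear RNAs (U1, U2, U4, U5 and U6), the RNA parts of the spliceosome, were also lower relative to 18S with Dbp7WT. U6 gave 3.17, 1.84 and 2.36 ends per 1000 18S ends in Δdbp7 + EV and 0.324, 0.325 and 0.341 in Δdbp7 + Dbp7WT. The groups were several-fold apart, and U6 was 7.26-fold higher in Δdbp7 + EV. U5 was 8.39-fold and U4 6.97-fold higher in Δdbp7 + EV relative to 18S, while U1 was 2.6-fold and U2 2.51-fold higher. U14 was listed at 0 ends in all libraries, and U3 at too few for a comparison.

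**Figure D5:**
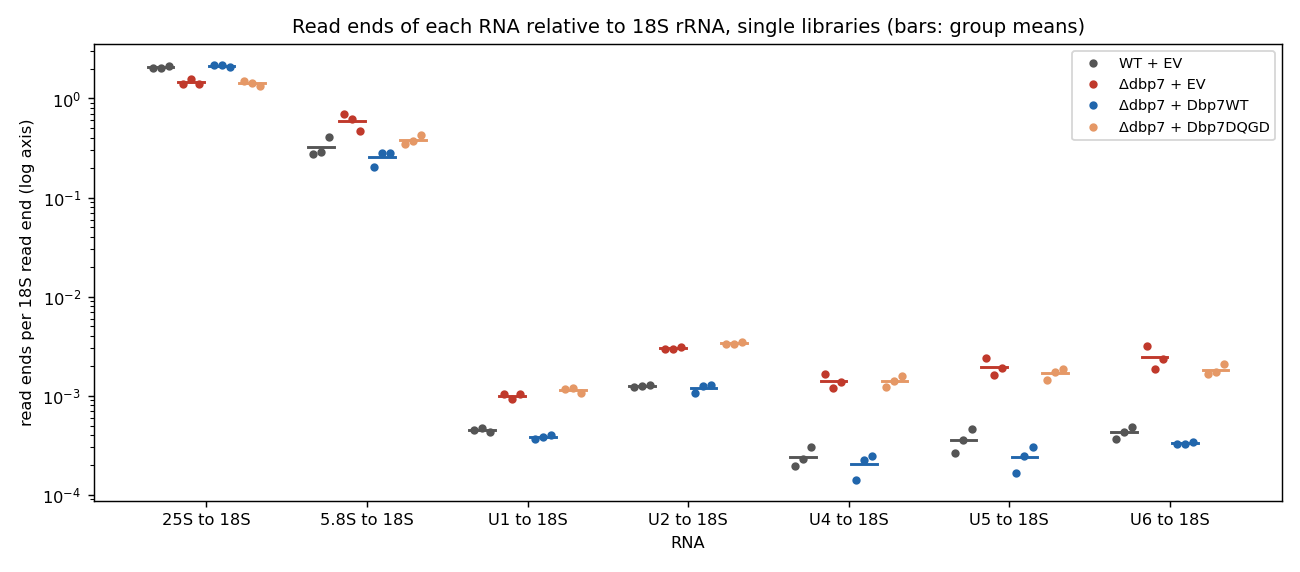
Read ends of each RNA per 18S read end (vertical, log axis) in all 12 libraries, with group means as bars (n = 3). Points of Δdbp7 + Dbp7WT lie above those of Δdbp7 + EV for 25S and below them for 5.8S and the 5 small nuclear RNAs.

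As shares of all read ends in the files, the 25S rRNA made up 45.0 to 49.0% in Δdbp7 + EV and 61.9 to 64.3% in Δdbp7 + Dbp7WT. Of 11 RNAs, edgeR called 1 higher with Dbp7WT (25S, 9.09%) and 7 lower (18S, 5.8S, U1, U2, U4, U5 and U6, 63.6%). The RNAs not called were U14 and both forms of U3, with no ends or too few. Every RNA that could be compared was thus called. The values compared are shares of 1 total, so more of 1 RNA and less of the others cannot be told apart. 25S was higher and U4, U5 and U6 were lower with Dbp7WT under each of the library sizes tried, whereas the sign for 18S, 5.8S, U1 and U2 turned with the library size. The log2 difference of 18S was -0.16 on the total, 0.48 with TMM factors and 2.05 on the ends of RNAs other than rRNA.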

How the data were processed

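The files deposited per library hold raw counts of read ends (5′, 3′ and their sum) for every nucleotide of 11 RNAs, not normalized, and the authors' RMS score, a fraction from 0 to 1 although its column is headed as a percentage. Per the submitters' processing notes, cutadapt 2.0 and Bowtie2 2.3.4.1 were used; the methods name the yeast transcriptome, and the build is not given in the sources used here. Recomputed scores equalled the deposited ones within 5e-10. The overview table holds the authors' group means at 55 sites. A barcode correction is mentioned for a few sites that are not identified, and another 24 columns of scores were not used. For the groups compared, the overview means departed from the library means at 18S C414, A420 and A541 and 25S A807 and U2421. Whether these are the corrected sites is not stated.

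Scores of the 12 libraries (1 mean per group) were compared with limma 3.58.1 in R 4.3.3, and end counts per nucleotide (flanking mean of at least 50 as offset) and per RNA by quasi-likelihood in edgeR 4.0.16. Tests were two-sided, with Benjamini-Hochberg adjustment and a threshold of 0.05. Ratios between RNAs were compared by exact permutation. On counts simulated for independent libraries with a set dispersion, the scan recovered 198 of 200 changed nucleotides. The real libraries deviated together as above, so this does not give the power of the scan on these data. P-values of limma and edgeR rest on the spread within groups over all 12 libraries, shared in part across sites, nucleotides or RNAs. They do not rest on the groups compared alone.

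Named sites were those that passed, the 10 with the smallest p, the 10 with the largest difference, the 6 sites named by the study, 25S C2959, 18S G1271 and 25S G2395, and from the scan 5 nucleotides per direction. Members, lists and this rule were chosen with earlier results of these data known. Guides are textbook assignments. Alternatives were other sets of libraries, a replicate block, 1 kind of read end, other weights, filters, library sizes and tools, including DESeq2 1.42.0. Same-numbered libraries of both groups compared did not deviate together (correlations -0.114, 0.113 and 0.0444), so they were not taken as pairs.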

Additional observations from a re-analysis of the deposited data

How the results depend on the processing

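Of the 55 sites, 2 passed on the sum of read ends. This count was 1 to 5 with a library left out, 13 from 5′ ends and 0 from 3′ ends, 5 with limma on log2 end ratios or edgeR on end counts, and 8 with DESeq2. With 5′ ends it was 9 to 14 with a library left out and 13 on the 6 libraries alone (12 higher and 18S A619 lower), both added after the data were seen. The shared numbers are no pairing here: with the replicate number as a block, 2 sites passed over 12 libraries and 0 over the 6 compared, with 8 at an unadjusted p under 0.05 (limma), and U898 then had an adjusted p of 0.0788. Over all nucleotides, where edgeR called 0, 1 passed on the 6 libraries and 1 with the replicate block on them (25S G24 both times), 10 from 5′ ends and 29 with DESeq2.

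At sites that had not passed on the sum of ends, some differences turned sign and others shrank without turning. From 5′ ends the differences were -0.00183 at 18S C414, 0.00193 at A420, -0.00339 at G1271 and -0.00334 at 25S G2922, and at A807 0.0661. On the overview means C414 gave -0.0225, A807 0.0705, A420 -0.00328 and U2421 0.0221. With a library left out, differences ran from -0.134 to 0.0514 at A807, -0.00386 to 0.0694 at C2197, -0.0627 to 0.00333 at C2948, -0.0721 to 0.00866 at C2959, -0.112 to -0.00377 at A420, 0.0487 to 0.155 at C414 and 0.0444 to 0.099 at G2922.

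Of the 11 RNAs, 8 passed, and 6 to 9 under the alternatives, but signs depended on the library size. The count of 6 came from testing only the 6 RNAs with at least 1000 read ends in every library. With the replicate block on the 6 libraries, 7 passed, without 18S (edgeR adjusted p = 0.0783). 18S gave log2 0.48 with TMM, 1.46 with DESeq2 size factors and 2.05 on RNAs other than rRNA. With the latter 2, 5.8S gave 0.23 and 0.81, U1 0.079 and 0.68, and U2 0.13 and 0.72. The log2 25S to 18S ratio was 0.54 to 0.62 with a library left out.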
